A study of Homo sapiens with 18 samples.

Results

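The data address whether HEK293 cells without β-arrestin1 and β-arrestin2 answer isoproterenol differently from wildtype cells, and whether a difference in fold change lies in the level before stimulation or in the level after it. HEK293 is a human embryonic kidney line, and the β-arrestin1/2 KO line was derived from it with CRISPR-Cas9. Both lines had been transiently transfected with a receptor plasmid, serum starved overnight and, 48 h after transfection, given vehicle (basal) or 1 μM isoproterenol, a β-adrenergic agonist, for 1 h. Each of the 4 groups had 3 biological replicates, so 12 of the 18 libraries of the series were compared, and the other 6 are Gαs KO cells treated alike. How many clones the β-arrestin1/2 KO line holds is not given in the sources used here, so the comparison is between these lines. The response difference was defined for every gene as the log2 response of β-arrestin1/2 KO cells minus that of wildtype cells. In the same model it equals the stimulated difference (KO minus wildtype with isoproterenol) minus the unstimulated difference (KO minus wildtype at basal), so each value could be split into these 2 terms. Of 15519 genes tested, 26 (0.168%) had a response difference with an adjusted p under 0.05 and are referred to as called, 22 of them positive (0.142%) and 4 negative (0.0258%). Wildtype basal replicate 1 stood apart from the other 11 libraries in GC content and transcript length, and without it 1295 genes (8.34%) were called, 678 positive and 617 negative, among them all 26 in the same direction.

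When an agonist binds a β-adrenergic receptor, the G protein Gs activates adenylyl cyclase, cAMP accumulates, and protein kinase A enters the nucleus and phosphorylates CREB. CREB and its relatives bind the cAMP response element and switch on early genes within the hour, among them the NR4A nuclear receptors, FOS and JUN family members and the gluconeogenic enzyme gene PCK1. The products of several of these genes, such as dual-specificity phosphatases, phosphodiesterases and SIK1, in turn dampen the ERK and cAMP pathways. β-arrestins bind the phosphorylated receptor, uncouple it from Gs and carry it to clathrin-coated pits, and they can also act as scaffolds for kinases.

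The 26 genes fell into 3 groups by which of the 2 terms was called. In 8 genes only the unstimulated difference was called, in 4 only the stimulated difference, and in 14 both. Of the 22 genes with a positive response difference, 7 belonged to the first group, 2 to the second and 13 to the third, and in 19 the unstimulated difference was called with KO cells lower. The unstimulated difference was called for 33.6% of all genes and the stimulated difference for 30.0%. The unstimulated difference enters the response difference with a minus sign and rests on the same basal libraries, so opposite signs are in part a product of the arithmetic, and the groups are a description with no test. In the plot of the stimulated against the unstimulated difference, most points sit to the left of zero and above the diagonal, while PCK1, DUSP1 and TOB1 form the upper right and VARS and NCL the lower end.

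**Figure D1:**
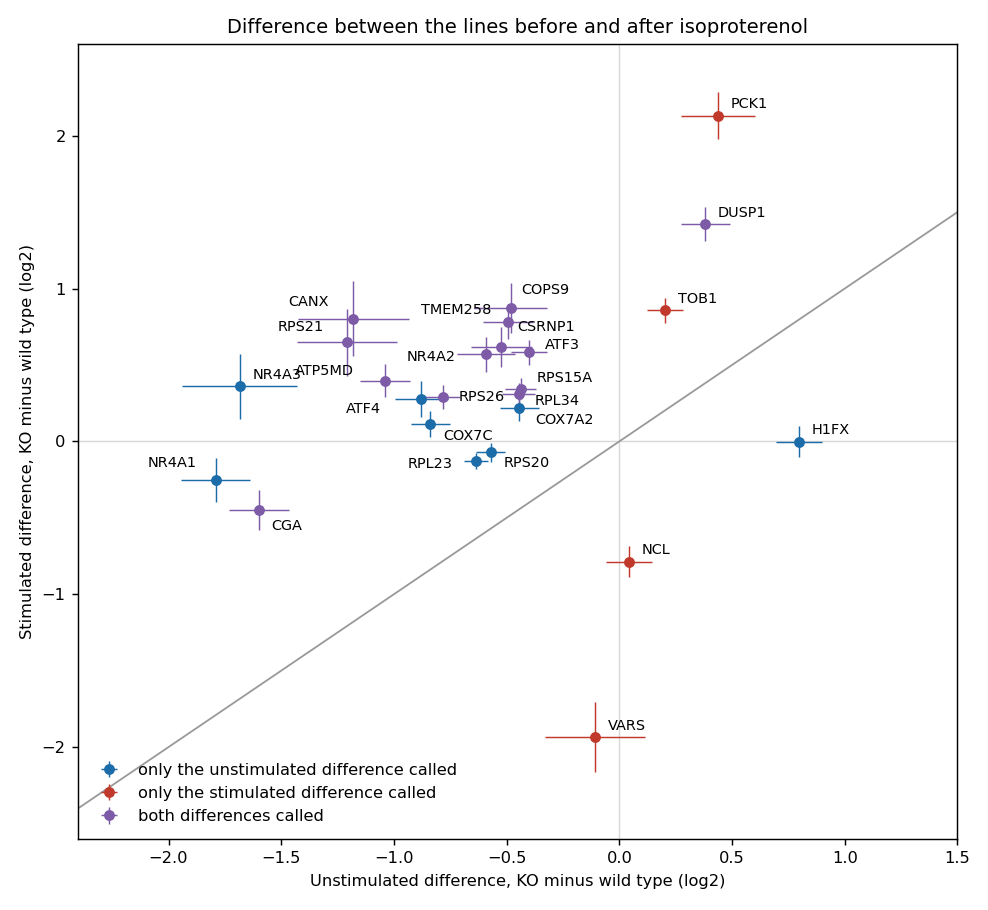
Each point is a called gene, with its unstimulated difference on the horizontal axis and its stimulated difference on the vertical axis (both β-arrestin1/2 KO minus wildtype, log2, bars are standard errors, 3 libraries a group). The height above or below the diagonal is the response difference. Blue points have only the unstimulated, red points only the stimulated and purple points both differences called. KIAA1147 is left out because 7 of its 12 libraries had no counts. NR4A1, NR4A3 and CGA lie far to the left with small stimulated differences, and PCK1 lies highest with a stimulated difference of 2.13.

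The promoters of 3 of these genes are shown because they hold 0, 1 or 2 copies of the full cAMP response element palindrome. Only the unstimulated difference was called for NR4A3, while both were called for CGA, lower in KO cells, and for DUSP1, higher in KO cells. They are RefSeq windows of GRCh38.p14 from 250 bases before to 50 bases after the gene start, written 5′ to 3′ on the strand of the gene, with every match to TGACG or its reverse complement CGTCA in capitals. CGA, which encodes the α subunit of the glycoprotein hormones, lies on the minus strand at chr6:87095057-87095356. NR4A3, an orphan nuclear receptor gene, lies on the plus strand at chr9:99821635-99821934. DUSP1, which encodes a phosphatase that inactivates MAP kinases, lies on the minus strand at chr5:172771146-172771445.
CGA: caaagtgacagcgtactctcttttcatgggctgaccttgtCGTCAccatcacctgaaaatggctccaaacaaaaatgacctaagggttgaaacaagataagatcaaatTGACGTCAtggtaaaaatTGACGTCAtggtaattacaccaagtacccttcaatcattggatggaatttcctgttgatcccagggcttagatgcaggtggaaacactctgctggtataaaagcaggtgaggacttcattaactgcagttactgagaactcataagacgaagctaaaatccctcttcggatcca
NR4A3: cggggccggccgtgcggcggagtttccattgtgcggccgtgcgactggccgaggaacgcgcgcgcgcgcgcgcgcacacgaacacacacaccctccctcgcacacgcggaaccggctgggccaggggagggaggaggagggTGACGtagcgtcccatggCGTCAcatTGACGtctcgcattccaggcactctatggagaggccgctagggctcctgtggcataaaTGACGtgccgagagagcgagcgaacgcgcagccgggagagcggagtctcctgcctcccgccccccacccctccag
DUSP1: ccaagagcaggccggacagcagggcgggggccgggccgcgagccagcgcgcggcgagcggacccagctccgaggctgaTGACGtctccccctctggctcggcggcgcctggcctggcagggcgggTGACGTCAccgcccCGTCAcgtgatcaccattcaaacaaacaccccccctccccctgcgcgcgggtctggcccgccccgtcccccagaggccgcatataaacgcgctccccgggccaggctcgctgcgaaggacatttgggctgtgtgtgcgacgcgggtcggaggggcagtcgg
The CGA window held 5 matches, 4 of them within 2 copies of the palindrome TGACGTCA, which contains a match on each strand. The NR4A3 window held 4 matches and no palindrome. The DUSP1 window held 4 matches, of which 2 made up 1 palindrome. A window was found for 20 of the 26 genes, and at least 1 TGACG match on either strand lay in the windows of 9 of them, namely ATF4, CANX, CGA, CSRNP1, DUSP1, NR4A3, RPL34, RPS21 and TOB1. Over the 11777 tested genes with a window the share was 39.1%, and over 17040 different windows it was 30.4%. TGACGTCA was in the windows of CGA and DUSP1 alone among the 20, against 3.56% of tested genes and 2.57% of windows. Windows for PCK1, NR4A2, RPS15A, RPL23, RPS20 and VARS were not used here.

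PCK1, DUSP1 and TOB1 differed chiefly after stimulation. PCK1 (ENSG00000124253, chromosome 20, 57561080 to 57568112 of GRCh38), the enzyme of the committed step of gluconeogenesis and a classical cAMP target, had 17.7, 10.4 and 15.2 CPM (counts scaled to a library of 1000000) in the wildtype basal libraries and 18.2, 18.5 and 22.0 in the KO basal libraries. With isoproterenol it had 132, 125 and 150 CPM in wildtype and 648, 517 and 615 CPM in KO cells. All KO libraries lay above all wildtype libraries of the same treatment, and the ratio of the group means was 1.36 at basal and 4.38 with isoproterenol. The stimulated difference was 2.13 (standard error 0.15, with an adjusted p of 5.4e-08 in the quasi-likelihood test of edgeR) and the unstimulated difference was 0.44 (standard error 0.16, adjusted p = 0.0502, same test), so the larger level after stimulation made up 126% of the response difference of 1.69 and the basal term counted against it. The response was 9.38-fold in wildtype and 30.3-fold in KO cells as a ratio of mean CPM, and the gain was 121 CPM (standard error 7.75) and 574 CPM (standard error 39.2).

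DUSP1 (ENSG00000120129, chromosome 5, 172768090 to 172771195) had 100, 69.7 and 85.5 CPM at basal in wildtype and 105, 110 and 117 CPM in KO cells. With isoproterenol it had 426, 488 and 546 CPM in wildtype and 1243, 1347 and 1323 CPM in KO cells, and the lines did not overlap under either treatment. Both terms were called with KO cells higher, 0.38 at basal (adjusted p = 0.013) and 1.42 after stimulation (adjusted p = 9.1e-08), which left a response difference of 1.04 (standard error 0.15, adjusted p = 0.0057). The gain was 402 CPM in wildtype and 1193 CPM in KO cells. TOB1 (ENSG00000141232, chromosome 17, 50862223 to 50867978), an antiproliferative adaptor of the mRNA deadenylation machinery, had 73.0, 61.1 and 73.3 CPM at basal in wildtype against 76.5, 81.9 and 80.3 CPM in KO cells. After stimulation it had 132, 130 and 145 CPM in wildtype and 247, 236 and 255 CPM in KO cells. Its stimulated difference of 0.86 was called (adjusted p = 7.8e-07), its unstimulated difference of 0.20 was not (adjusted p = 0.064), and its response difference was 0.66 (adjusted p = 0.021). The TOB1 call was lost with offsets for GC content and transcript length (0.76, adjusted p = 0.061), and the gene was called in 5 of 12 when single libraries were dropped.

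NR4A1 and NR4A3 differed chiefly before stimulation. NR4A1 (ENSG00000123358, chromosome 12, 52022832 to 52059507), also known as Nur77, had 203, 116 and 155 CPM in wildtype basal libraries and 46.4, 40.6 and 50.3 CPM in KO basal libraries, which did not overlap. With isoproterenol it had 563, 539 and 589 CPM in wildtype and 518, 421 and 481 CPM in KO cells, so the stimulated KO libraries all lay below the wildtype ones. The unstimulated difference was -1.79 (standard error 0.15, adjusted p = 3.0e-07) and the stimulated difference was -0.25 (standard error 0.15, adjusted p = 0.21), giving a response difference of 1.54 (standard error 0.21, adjusted p = 0.0033). As a ratio of mean CPM the response was 3.56-fold in wildtype and 10.3-fold in KO cells, while the gain was 405 CPM (standard error 28.99) and 427 CPM (standard error 28.3), a difference of 22.1 CPM with a standard error of 40.5. Without wildtype basal replicate 1, both terms of NR4A1 were called.

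NR4A3 (ENSG00000119508, chromosome 9, 99821855 to 99866891), also known as NOR1, was low at basal, with 6.37, 6.12 and 7.37 CPM in wildtype and 2.36, 1.45 and 2.43 CPM in KO cells. With isoproterenol it had 39.2, 29.5 and 30.6 CPM in wildtype and 49.9, 36.8 and 40.8 CPM in KO cells, and these ranges overlapped. The unstimulated difference was -1.68 (adjusted p = 9.4e-05), the stimulated difference was 0.36 (standard error 0.21, adjusted p = 0.22), and the response difference of 2.05 (standard error 0.33, adjusted p = 0.013) came for 82.3% from the basal term. The gain was 26.5 CPM (standard error 3.07) in wildtype and 40.4 CPM (standard error 3.88) in KO cells. CGA (ENSG00000135346, chromosome 6, 87085498 to 87095406) did not respond in wildtype cells, with 550, 519 and 536 CPM at basal and 572, 515 and 459 CPM with isoproterenol (log2 response -0.05, adjusted p = 0.86). In KO cells it rose from 150, 172 and 207 CPM to 432, 318 and 382 CPM (log2 response 1.10, adjusted p = 0.00013), and the stimulated KO libraries stayed under all wildtype libraries. CGA was lower in KO cells in both terms, by -1.60 at basal (adjusted p = 2.4e-07) and by -0.45 after stimulation (adjusted p = 0.015), and its response difference was 1.15 (adjusted p = 0.013).

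NR4A2, CSRNP1 and ATF3 were lower in KO cells at basal and higher after stimulation, with both terms called. NR4A2 (ENSG00000153234, chromosome 2, 156324432 to 156342348), or Nurr1, had 12.1, 13.2 and 15.6 CPM at basal in wildtype against 8.39, 9.51 and 9.17 CPM in KO cells, and 164, 147 and 157 CPM against 256, 217 and 222 CPM with isoproterenol. The groups did not overlap at either point, and the terms of -0.59 and 0.57 were nearly equal in size in a response difference of 1.16 (standard error 0.17, adjusted p = 0.0057). CSRNP1 (ENSG00000144655, chromosome 3, 39141855 to 39154562), a nuclear protein gene induced by AXIN1, went from 24.7 ± 6.09 to 53.4 ± 3.08 CPM (mean ± SD, n = 3) in wildtype and from 17.2 ± 1.02 to 81.9 ± 5.36 CPM in KO cells, with a response difference of 1.14 (adjusted p = 0.017). ATF3 (ENSG00000162772, chromosome 1, 212565334 to 212620777), a stress-inducible factor of the ATF/CREB family, went from 96.3 ± 7.98 to 178 ± 1.24 CPM in wildtype and from 72.9 ± 6.37 to 266 ± 16.4 CPM in KO cells. Its response difference of 0.98 (standard error 0.11, adjusted p = 0.00089) was made up of -0.40 at basal and 0.58 after stimulation, and it was called in each of 12 when single libraries were dropped. CSRNP1 was called in 8 of these 12 fits, and NR4A3 and CGA in 10. The gain of ATF3 was 81.6 CPM in wildtype and 193 CPM in KO cells.

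**Figure D2:**
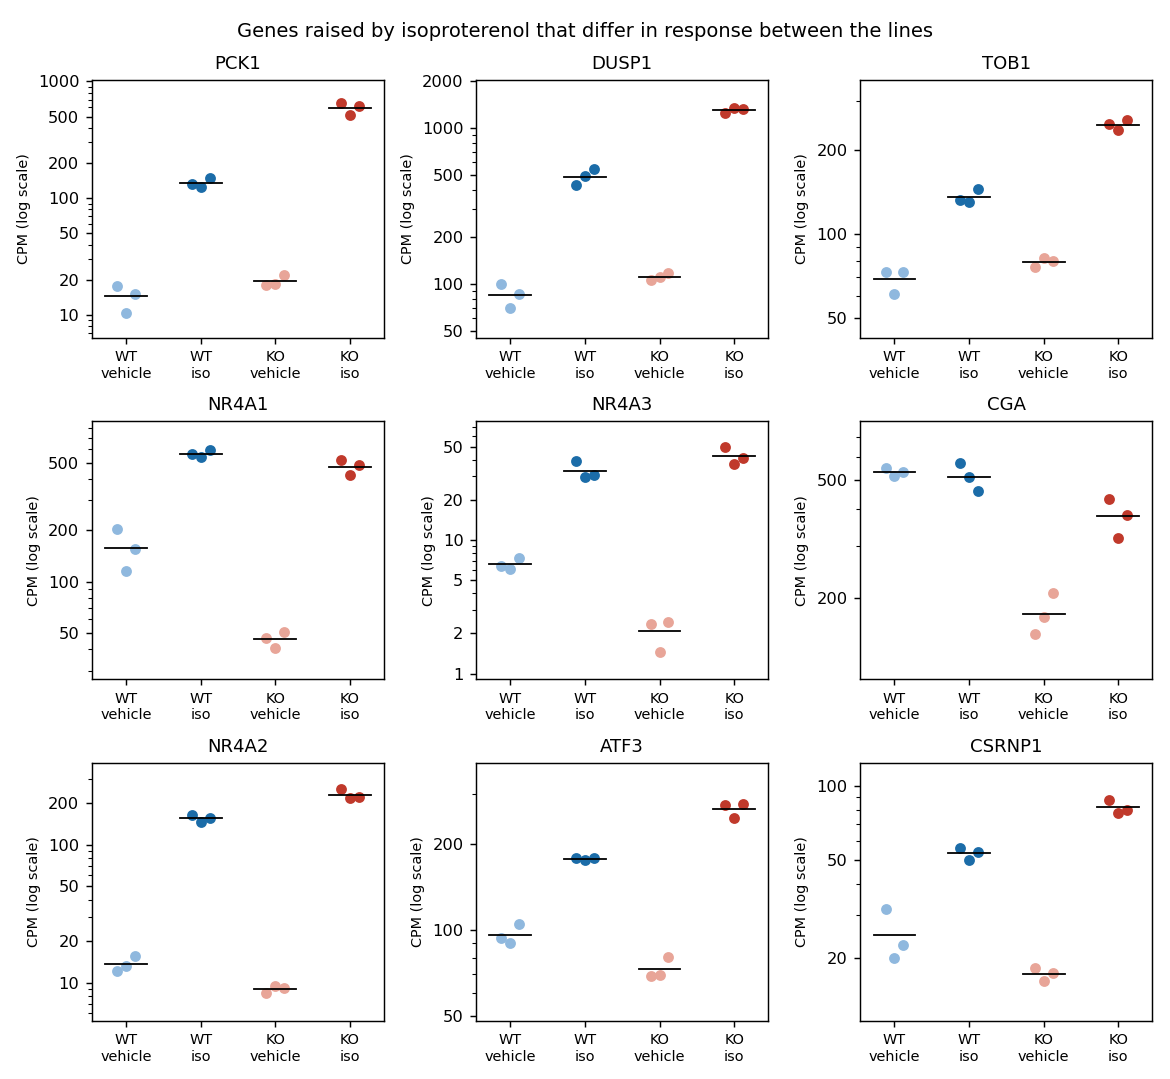
CPM of 9 genes in the 12 libraries (points) with group means (bars), on a log scale, in wildtype (WT) and β-arrestin1/2 KO cells with vehicle or isoproterenol (iso). In the top row the lines part mainly after stimulation (PCK1, 593 against 135 CPM), with KO cells already somewhat higher before it. In the middle row they part mainly before it (NR4A1, 45.8 against 158 CPM), and in the bottom row they cross.

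The response to isoproterenol was called for 72 genes (0.464%) in wildtype cells and 175 (1.13%) in KO cells. Of the 22 genes with a positive response difference, 8 had risen in wildtype cells, 6 had fallen and 8 were not called, whereas 18 had risen in KO cells and 4 were not called. The 8 that had risen in wildtype cells were NR4A1, NR4A2, NR4A3, PCK1, DUSP1, TOB1, CSRNP1 and ATF3. ATF4, the translation-controlled regulator of the integrated stress response, was among those not called in wildtype cells (log2 response -0.51, adjusted p = 0.090) and it rose in KO cells (0.65, adjusted p = 0.0071). Its CPM were 84.7, 80.2 and 92.3 at basal and 54.9, 57.6 and 68.5 with isoproterenol in wildtype, against 50.3, 43.8 and 45.9 and then 88.0, 63.9 and 67.6 in KO cells. The difference lay mostly at basal (-0.88, adjusted p = 3.3e-05), and the stimulated difference of 0.28 was not called (adjusted p = 0.086). Both terms of ATF4 were called without wildtype basal replicate 1 and with GC and length offsets. No other gene of the 14 tested in the ATF4 list was called by edgeR with all libraries and no offsets, while DESeq2 and limma with sample weights each called 2 of the 14. Over all 15519 genes, DESeq2 called 104 and limma 783. PPP1R15A, a regulatory subunit gene of the phosphatase of eIF2α, had a response difference of 0.81 (adjusted p = 0.14 with edgeR and 0.0082 with DESeq2). It was called by edgeR without wildtype basal replicate 1 (0.60, adjusted p = 0.011) and with GC and length offsets (0.78, adjusted p = 0.00051).

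For several strong responders a response difference was not called by edgeR with all libraries and no offsets. JUNB, a JUN family gene, had 31.5, 21.9 and 26.8 CPM at basal in wildtype against 49.2, 43.9 and 50.04 CPM in KO cells, and 156, 176 and 219 against 336, 314 and 328 CPM with isoproterenol. KO cells were higher by 0.83 in both terms (adjusted p = 0.00017 and 0.00014), so the response difference was -0.01 with a 95% interval from -0.39 to 0.38. FOS had a response difference of 0.31 (95% interval -0.19 to 0.80), and its stimulated level was 83.5, 88.1 and 94.7 CPM in wildtype and 131, 132 and 135 CPM in KO cells (stimulated difference 0.58, adjusted p = 0.010). FOSL2, a FOS-related gene, had a value of 0.57 (interval 0.18 to 0.97, adjusted p = 0.49), and DUSP5, a nuclear ERK phosphatase gene, one of 0.63 (interval 0.18 to 1.07, adjusted p = 0.55). SIK1, a salt-inducible kinase gene that restrains CREB coactivators, went from 9.31, 13.0 and 13.2 to 64.0, 62.3 and 67.4 CPM in wildtype and from 16.0, 11.9 and 15.9 to 133, 138 and 131 CPM in KO cells. Its response difference was 0.75 (interval 0.27 to 1.23, adjusted p = 0.39) beside a called stimulated difference of 1.05 (adjusted p = 8.7e-05). The early gene IER2 had a value of 0.86 (adjusted p = 0.064) and was called with GC and length offsets (0.87, adjusted p = 6.5e-06). IER2 was also called without wildtype basal replicate 1 (0.66, adjusted p = 0.0022) and with DESeq2 (0.86, adjusted p = 0.00075). SIK1 was called without that library (0.90, adjusted p = 0.014), but not with DESeq2 (0.75) or offsets (0.76). Limma with sample weights called IER2, SIK1 and DUSP5 (0.74, 0.90 and 0.58), and not FOS, FOSL2 or JUNB. The intervals of FOSL2, DUSP5, SIK1 and IER2 excluded zero before adjustment over all genes.

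**Figure D3:**
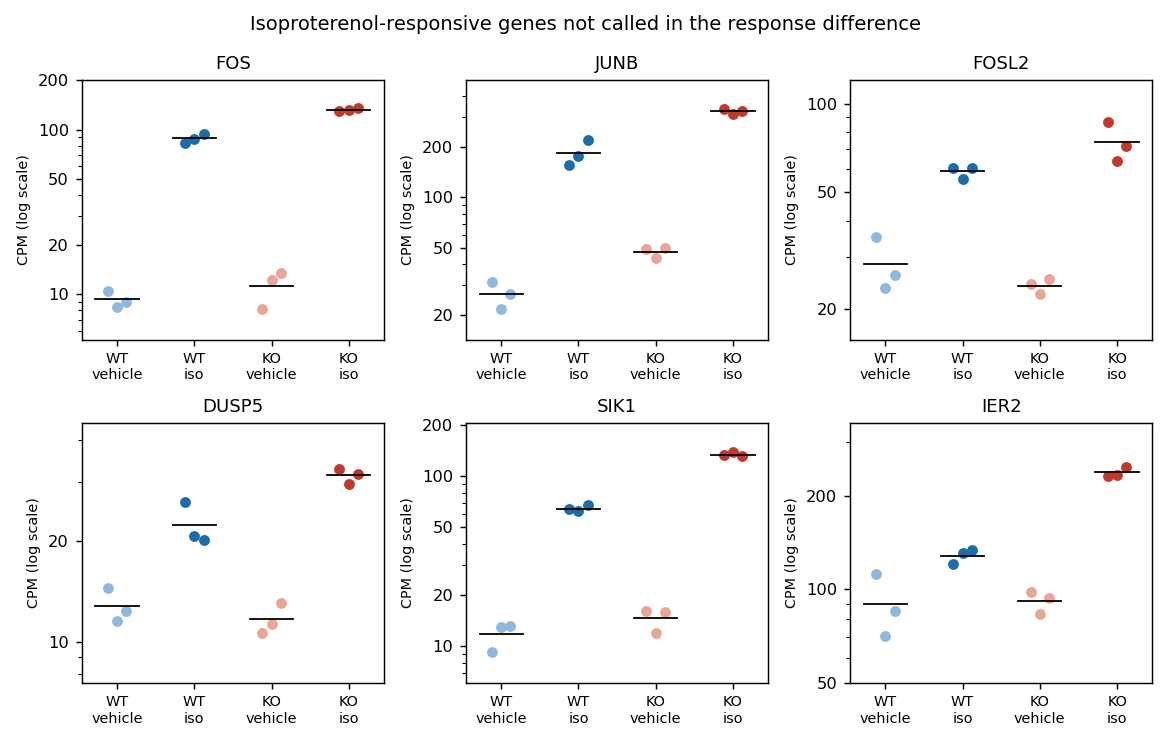
CPM of 6 isoproterenol-responsive genes in the 12 libraries (points) with group means (bars), on a log scale. JUNB keeps the same distance between the lines before and after stimulation. SIK1 and IER2 are higher in the stimulated KO libraries, but their response differences were not called by edgeR with all libraries and no offsets. Both were called in some other fits.

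The lists that hold these genes are described by counts and medians, since the lists were chosen with results of these data known. Of 34 tested cAMP and CREB early target genes, 6 were called positive and none negative (CGA, DUSP1, NR4A1, NR4A2, NR4A3 and PCK1), 26 had a value above 0, and the median response difference was 0.30 against -0.005 over all genes tested, of which 49.2% were above 0. Of the same 34, isoproterenol raised 15 in wildtype and 18 in KO cells. Of 19 FOS, JUN, EGR and IER genes, 2 were called (ATF3 and CSRNP1, median 0.09), of 15 ERK feedback genes 1 (DUSP1, median 0.23), and of 8 mRNA decay factors of the BTG, TOB and ZFP36 families 1 (TOB1, median 0.32, with all 8 above 0). With all libraries and no offsets, none was called by edgeR among 23 cAMP feedback genes (median 0.12), 21 KLF, ID and HES regulators (0.15), 29 genes of the machinery from receptor to protein kinase A (0.05), 19 sterol synthesis genes (0.10), 14 heat shock genes (0.09), 10 YAP targets (0.09) and 13 mitochondrially encoded genes (0.32). In these 7 lists, in that order, 2, 3, 1, 0, 1, 0 and 4 members had an unadjusted p under 0.05, DESeq2 called 0, 1, 1, 0, 1, 0 and 1, and limma with sample weights called 3, 3, 2, 2, 2, 0 and 4. Over all 15519 genes tested, the counts were 864 with an unadjusted p under 0.05, 104 with DESeq2 and 783 with limma. Without wildtype basal replicate 1 the counts were 10, 4 positive and 2 negative, 2 and 3 in the first 4 lists, read against 8.34% of all genes called. In that fit the cAMP feedback genes called were PDE10A, PDE4D and SIK1, with response differences of 0.44, 0.52 and 0.90. Their unstimulated differences in the same fit were -0.61, -0.78 and 0.15. The first 2 of these were called, with KO cells lower, and that of SIK1 was not. The other lists with no call above then had called members too, in a fit that called 8.34% of all genes. These members are given as single genes and not as a result about their list. Examples, 1 for each list in the order above, were KLF4 (0.53), GNAS (-0.53), INSIG1 (0.37), HSPA5 (0.52), TEAD1 (0.26) and MT-ND3 (1.20).

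**Figure D4:**
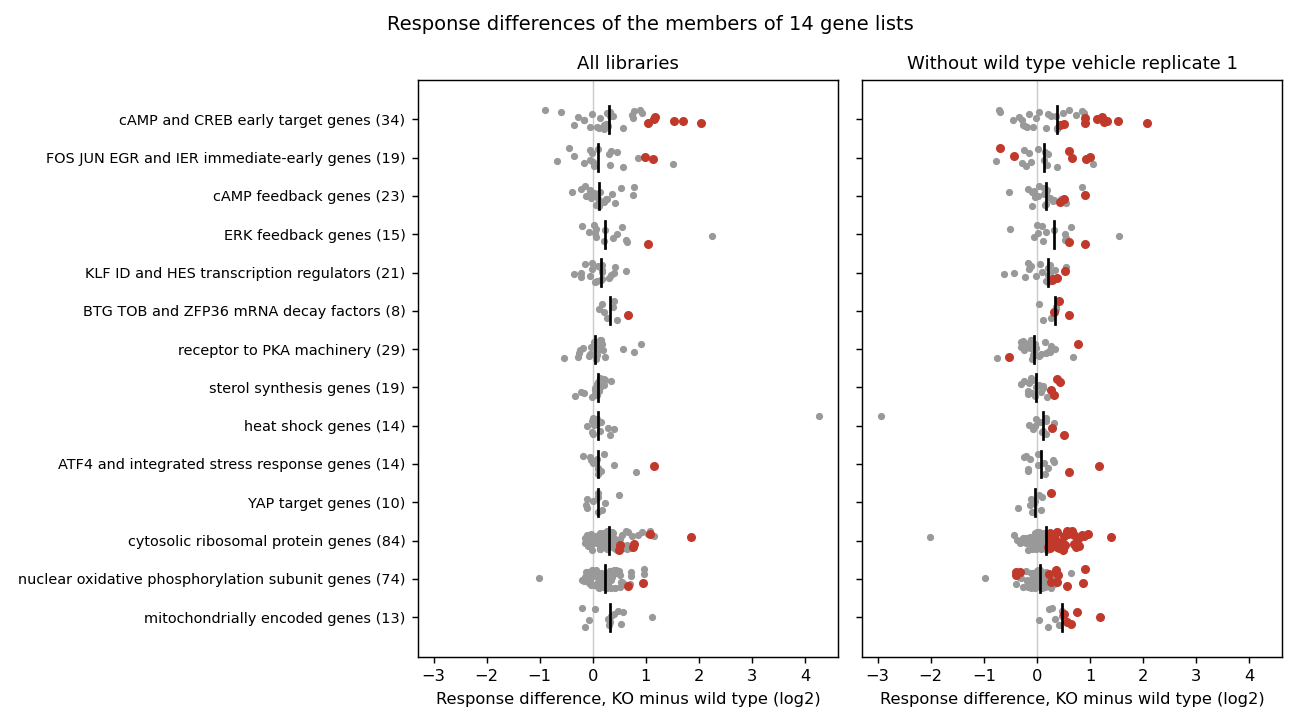
Response differences (β-arrestin1/2 KO minus wildtype, log2) of the tested members of 14 gene lists, with the number tested in brackets, in all libraries (left) and without wildtype basal replicate 1 (right). Red points are called genes, grey points are not, and black bars are list medians. With all libraries 6 of 84 ribosomal protein genes are called, and without that library 34 are.

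Of the 22 genes with a positive response difference, 11 had a mean transcript length under 1000 bases (a bound set after the values were seen), between 352 and 768 bases, against 7.27% of all tested genes. Without wildtype basal replicate 1 the share was 9.7% of the 678 positive and 6.6% of the 617 negative genes. With GC and length offsets as well, it was 29.4% of 180 positive and 27.4% of 62 negative genes. The 11 genes encode the ribosomal proteins RPS15A, RPS20, RPS21, RPS26, RPL23 and RPL34, the cytochrome c oxidase subunits COX7A2 and COX7C, the ATP synthase-associated ATP5MD, the oligosaccharyltransferase subunit TMEM258 and the signalosome subunit COPS9. Their log2 response ran from -1.12 to -0.23 in wildtype and from 0.22 to 0.89 in KO cells. All 11 were lower in KO cells at basal, by -1.21 to -0.44, and their stimulated differences ran from -0.13 to 0.87. RPS26 had 397, 329 and 324 CPM at basal and 254, 245 and 244 CPM with isoproterenol in wildtype, and 188, 203 and 220 CPM and then 290, 308 and 310 CPM in KO cells. It fell in wildtype (-0.50, adjusted p = 0.0038) and rose in KO cells (0.57, adjusted p = 0.00055), with no overlap between treatments in either line. COX7C (-0.49 and 0.46), ATP5MD (-0.55 and 0.89) and TMEM258 (-0.74 and 0.54) were called in opposite directions in the same way. TMEM258 stood at 74.2, 64.6 and 61.3 CPM and then 37.1, 34.5 and 48.1 CPM in wildtype, and at 50.6, 47.6 and 43.8 CPM and then 69.4, 67.7 and 68.9 CPM in KO cells. RPS21 had 738 CPM in wildtype basal replicate 1 against 349 and 351 CPM in the other two, and its response difference of 1.86 was 1.40 without that library.

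**Figure D5:**
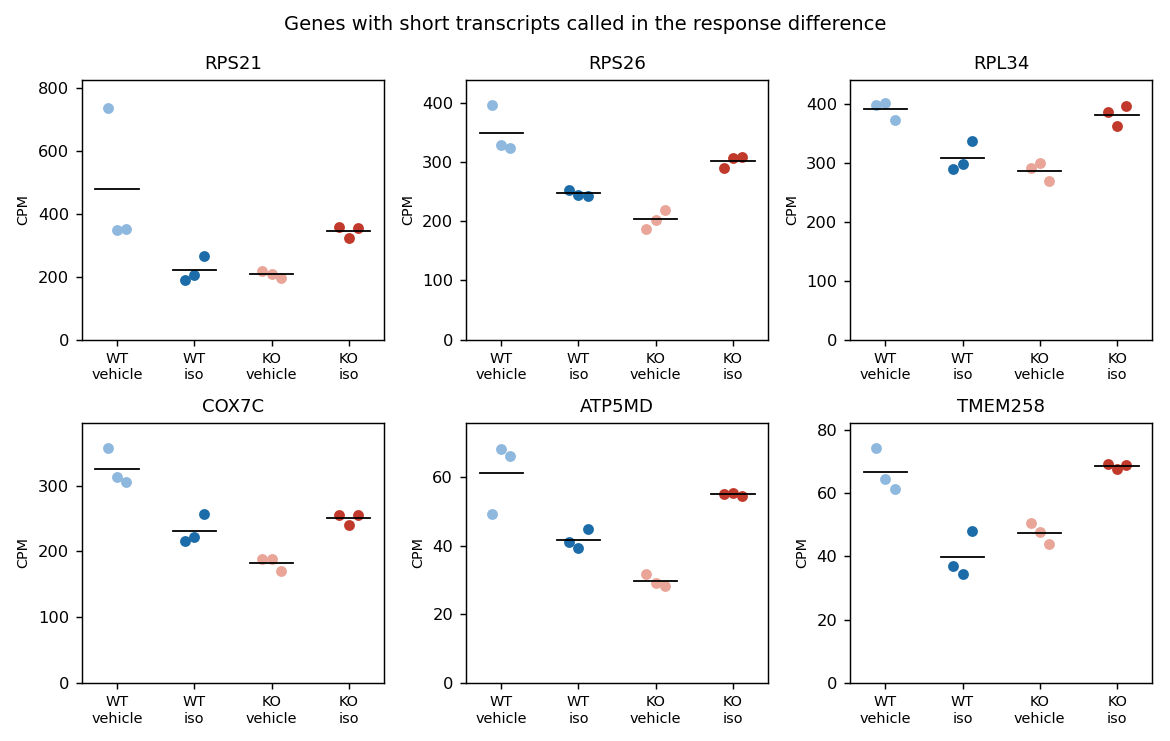
CPM of 6 genes with short transcripts in the 12 libraries (points) with group means (bars), on a linear scale from 0. In wildtype cells the isoproterenol libraries lie below the basal libraries, and in KO cells above them. The highest RPS21 point, 738 CPM, is wildtype basal replicate 1.

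Among the 84 tested cytosolic ribosomal protein genes, 6 were called positive and 72 had a value above 0, with a median of 0.31. The list median was 0.17 without wildtype basal replicate 1, with 34 called positive, and 0.15 with GC and length offsets, with 19. Over all 15519 genes, 678 were called positive in the former fit and 101 in the latter. Of 74 nuclear oxidative phosphorylation genes, 2 were called (COX7A2 and COX7C) and the median was 0.23, which became 0.07 without that library. GC content moved with treatment in KO cells. The mean GC of the counted transcripts was 49.8 to 50.1% in the KO basal libraries and 49.3 to 49.4% in the KO isoproterenol libraries. In wildtype it was 49.5 to 49.8% with isoproterenol, and 49.2 and 49.6% in basal replicates 2 and 3. Wildtype basal replicate 1 had 52.5%, against 49.2 to 50.1% in the other 11 libraries. With offsets for GC and length, the 11 short genes kept positive response differences of 0.40 to 1.55, and with that library left out as well, of 0.36 to 1.36, called in both fits. When single libraries were dropped, COX7A2 was called in 4 of 12 fits, COPS9 and RPS20 in 5, RPS21 in 6 and the other 7 short genes in all 12. With only the 12 libraries in the model, RPS21, COPS9, RPL34, COX7A2, RPL23 and RPS20 were not called. Many ribosomal protein genes have near-identical processed pseudogenes, so their counts are uncertain where reads were shared.

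The 4 negative response differences were of mixed kinds, and the counts behind 3 of them rest on incomplete or switching sets of transcripts. H1FX, a linker histone gene, had 296, 243 and 305 CPM at basal in wildtype and 517, 426 and 524 CPM in KO cells, and with isoproterenol 295, 328 and 346 CPM against 325, 302 and 341 CPM. Its difference lay at basal alone (0.80, adjusted p = 1.8e-05, against -0.002 after stimulation), and the response difference of -0.80 (adjusted p = 0.024) was -0.64 and not called with GC and length offsets (adjusted p = 0.095). VARS, the valyl-tRNA synthetase gene of the major histocompatibility region, had 41.8, 45.4 and 43.7 CPM and then 75.4, 57.3 and 62.1 CPM in wildtype, and 54.3, 29.9 and 37.3 CPM and then 20.8, 19.5 and 10.6 CPM in KO cells. The stimulated difference was -1.93 (adjusted p = 1.2e-05) and the unstimulated difference -0.11 (adjusted p = 0.74), but 1 of the 14 annotated VARS transcripts was among those counted. For NCL, the nucleolin gene, the stimulated difference was -0.79 and the unstimulated difference 0.04, and 0.51% of its counts were in transcripts over 1000 bases, although the longest annotated one has 4034 bases. KIAA1147 had 0 counts in all 3 wildtype basal libraries, in wildtype isoproterenol replicate 3 and in all 3 KO isoproterenol libraries, and 29.3 to 70.2 CPM in the other 5. A transcript matched to no gene, found after these values were seen as the most opposed of 3264, had 0 counts in 3 of those 5 libraries and at least 1051 in each of the 7, and the summed counts, scaled to 1000000 of each library's total, ran from 48.7 to 66.8 over the 12 libraries, so no fold change is given. CANX, the calnexin gene and 1 of the positive genes, was likewise divided. Its transcript of 4260 bases had 0 counts in 7 of the 12 libraries and 662 to 1377 in the 3 stimulated KO libraries. In wildtype basal replicates 2 and 3 it had 934 and 338 counts. When single libraries were dropped, CANX and NCL were called in 6 of 12 fits, H1FX in 5, VARS in 8 and KIAA1147 in all 12.

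The 10 highest and 10 lowest values were also read among the genes called without wildtype basal replicate 1 that had at least 10 counts in every library. Among the highest, NR4A1, NR4A3, PCK1, CANX, RPS21, ATP5MD and COPS9 have been given above. STC1, the stanniocalcin hormone gene, was raised in KO cells (log2 response 1.85, adjusted p = 3.6e-05) from 6.20, 5.50 and 5.36 to 20.2, 19.6 and 21.8 CPM, against 2.72, 4.14 and 2.98 and then 5.79, 4.92 and 3.82 CPM in wildtype. Its response difference was 1.29 in all libraries (adjusted p = 0.13) and 1.40 without that library (adjusted p = 0.011). INHBA, the inhibin and activin βA subunit gene, was lower in KO cells at basal (-1.12, adjusted p = 0.0048) and not after stimulation (-0.05, adjusted p = 0.91), and its response difference was 1.07 in all libraries (adjusted p = 0.61). Of the 10 lowest, VARS was called in all libraries too, and STK19, UHRF1, HYPK and CSPG4P10 were not, with values of -2.35, -1.71, -1.38 and -1.68. The others of the 20 were mostly pseudogenes or unnamed genes, whose reads may be shared with near-identical copies.

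The targeted genes were read in the same libraries. ARRB2 (chromosome 17, 4710489 to 4721499) had 98.9 ± 28.6 CPM at basal and 83.2 ± 3.17 CPM with isoproterenol in wildtype, and 20.8 ± 2.55 and 17.2 ± 1.73 CPM in KO cells (unstimulated difference -2.25, adjusted p = 2.6e-08). ARRB1 (chromosome 11, 75264182 to 75351705) had 38.5 to 65.3 CPM in wildtype and 37.9 to 43.5 CPM in KO cells, and its unstimulated difference of -0.27 was not called (adjusted p = 0.14). An edited gene can go on being transcribed, so its RNA level is no measure of the protein. Fewer cells of a kind and less RNA per cell cannot be told apart in these bulk libraries. In the Gαs KO libraries, PCK1 had 0.61 to 1.23 CPM, CGA 0.39 to 0.88 CPM, NR4A1 16.9 to 21.2 CPM and NR4A3 0.82 to 2.01 CPM over both treatments. NR4A1 and CGA were thus highest at basal in wildtype, intermediate in β-arrestin1/2 KO and lowest in Gαs KO cells, without overlap, whereas NR4A3 overlapped between the KO lines.

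Across the 12 libraries the totals ran from 18433424 to 25019834 expected counts, the estimated number of read pairs a transcript was given. Of 8 genes typical of HEK293 cells, 6 had at least 1 CPM in every library, and the summed level of 3 hepatocyte markers was at most 0.95 CPM, of 4 leukocyte markers 2.06 to 4.55 CPM, of 4 fibroblast markers 3.35 to 5.45 CPM and of 3 endothelial markers 2.32 to 8.76 CPM. Wildtype basal replicate 1 stood apart, with a mean counted transcript length of 3109 bases against 3398 to 3553 in the other 11 and a sample weight of 0.029 against 0.49 to 3.02. Without it the 678 positive genes divided into 209 with only the unstimulated, 191 with only the stimulated and 278 with both terms called, and 20 of the 26 genes kept their group. PCK1, NR4A1, ATF4, COX7A2, TOB1 and RPL23 then had both terms called. With only the 12 libraries in the model 9 genes were called, all among the 26, namely NR4A3, PCK1, ATP5MD, TMEM258, NR4A2, RPS26, ATF3, COX7C and RPS15A.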

How the data were processed

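Poly-A selected mRNA of 12 libraries was compared, out of 18 fitted. The deposited values are expected counts per transcript, which the authors estimated with Salmon 1.7.0 from 150-bp read pairs against GRCh38 (hg38). They were not scaled for depth, and the transcript index and its annotation release are not given in the sources used here. Transcripts were summed to genes through GENCODE release 29, which matched 92.9 to 93.7% of counts, and sums were rounded. Totals of 18433424 to 25019834 set the counting precision.

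Genes passing edgeR's expression filter (15519) were tested with edgeR 4.0.16 (R 4.3.3, TMM scaling, quasi-likelihood test, 6 groups in 1 model, two-sided, Benjamini-Hochberg adjusted p under 0.05 over all genes). CPM scales counts to a TMM-scaled library of 1000000, and standard errors derive from the F statistic. P-values set each difference against the spread among biological replicates, which was estimated over all 18 libraries and not only the 12 compared. Alternatives were DESeq2 1.42.0, limma 3.58.1 (voom with sample weights), other scaling, filters, thresholds and samples, offsets for GC content and transcript length, a replicate block and leaving out each library. Figures used matplotlib 3.10.9. Deposited columns of the Gαs KO libraries entered the model only for the spread and for levels.

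Named were all called genes (up to 40), the 10 highest and 10 lowest among genes called without wildtype basal replicate 1 with at least 10 counts in each of the 12 libraries, up to 4 examples per list, and a short set of responders with both arrestins. A gene of that set is not reported here. A few of these are pseudogenes or genes given only by number. The members and lists were chosen with earlier results of these data known.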

Additional observations from a re-analysis of the deposited data

Results flagged for a closer look

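These genes are listed because the response to isoproterenol differed between the lines by edgeR's interaction test, and the values are response differences (β-arrestin1/2 KO minus wildtype, log2). Among the cAMP-responsive and early genes the values were 2.05 for NR4A3, 1.69 for PCK1, 1.54 for NR4A1, 1.16 for NR4A2, 1.15 for CGA, 1.14 for CSRNP1, 1.04 for DUSP1, 0.98 for ATF3 and 0.66 for TOB1. ATF4 had 1.16 and CANX 1.98. Among the genes with short transcripts they were 1.86 for RPS21, 1.44 for ATP5MD, 1.35 for COPS9, 1.28 for TMEM258, 1.07 for RPS26, 0.95 for COX7C, 0.78 for RPS15A, 0.76 for RPL34, 0.66 for COX7A2, 0.51 for RPL23 and 0.50 for RPS20. The negative values were -0.80 for H1FX, -0.83 for NCL and -1.82 for VARS. KIAA1147 was called as well, with 7 of the 12 libraries at 0 counts.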

How the results depend on the processing

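All 26 genes kept their direction under every alternative in which they were tested, and for the 25 of them other than KIAA1147, 509 values over the alternatives stayed called and 91 did not. KIAA1147 was not called with limma or with only the 12 libraries, and was not tested where at least 10 counts in every library were required. Counts of calls are given here for the response difference, the wildtype response and the KO response, in that order. They were 104, 187 and 291 with DESeq2, 783, 305 and 1793 with limma and sample weights, 121, 226 and 373 with GC and length offsets, 115, 216 and 370 with those offsets and a replicate block, 9, 40 and 90 with only the 12 libraries, and 16, 28 and 62 at an absolute log2 difference of at least 1. At an adjusted p under 0.01 the response difference was called for 13 genes and the KO response for 110. Added after seeing the data, offsets without wildtype basal replicate 1 gave 242, 206 and 733, and the 12 libraries without it gave 213 and, for the KO response, 1054. Leaving out each library gave 16 to 1295, 57 to 174 and 115 to 1853, with the highest without wildtype basal replicate 1. The response difference also moved to 43 without wildtype basal replicate 2, 16 without KO basal replicate 3, and 17 without KO basal replicate 1 or KO isoproterenol replicate 1. The wildtype response moved to 111 without wildtype basal replicate 2, and the KO response to 116 and 115 without KO basal replicates 1 and 3.

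The unstimulated difference was called for 8126 genes with limma, 3326 at an adjusted p under 0.01, 1256 at an absolute log2 of at least 1, and 4126 to 7356 leaving out each library. The stimulated difference was called for 7837 with limma, 7177 with offsets, 7141 with offsets and the block, 7994 with offsets and 7213 with the 12 libraries without wildtype basal replicate 1, 2961 at 0.01, 1110 at an absolute log2 of at least 1, and 3621 to 7813 leaving out each library. The cause of these moves was not tested. Same-numbered libraries shared little beyond the number (correlations of deviations -0.13 to 0.12), and the replicate block gave 27 response difference calls. Of the 22 and 4 calls, 84.6% were positive, against 52.4% without wildtype basal replicate 1. With 3 libraries a group and 1 library far from the rest, genes that were not called may still differ.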
